A study of Mus musculus with 64 samples.

Results

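The response of the ventral hippocampus (vHPC) of WT male mice to chronic oral corticosterone (CORT), the main glucocorticoid of rodents, was described over all 21088 genes of the deposited comparison of CORT with vehicle, out of 21114 genes in any of the 8 tables of the series. The members were all genes of that table, chosen by its name and not by any value. It covered 8 of 64 libraries, 4 from WT males given CORT and 4 from WT males given vehicle. The mice were C57BL/6, wild type (WT) for the Val66Met variant of brain-derived neurotrophic factor (BDNF), and 2 months old when treatment began. CORT was given at 25 mg/l in drinking water for 6 weeks and both groups drank 1% ethanol, the vehicle. Each library pooled RNA of 2 animals of a group, so a library is not an animal. The other groups used here differed in one respect: males heterozygous for the Val66Met variant (hMet), WT females, or the dorsal hippocampus (dHPC) of WT males.

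CORT crosses into the brain and binds the glucocorticoid receptor and the mineralocorticoid receptor, both dense in the hippocampus. The activated glucocorticoid receptor enters the nucleus and binds a palindromic DNA element made of a pair of mirrored arms with a short spacer, where it raises the transcription of its target genes, or it lowers others through other factors. Targets known in brain include the cochaperone Fkbp5, which feeds back on the receptor, and several genes of astrocytes and of brain vessels. The vHPC is the part of the hippocampus tied most closely to the amygdala and the hypothalamus and to affective behavior.

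The table gives, gene by gene, a mean expression over the vHPC libraries (log2 CPM, read counts scaled to the library size), a log2 fold change with its error, a moderated t of limma-voom, and p with and without adjustment (Benjamini-Hochberg over all 21088 genes), and nothing per library. The value of a gene in a single library, the overlap of the 2 groups and the effect of leaving out a library are therefore not given here. Standard errors below are moderated, that is the fold change over t, and intervals are 95% confidence intervals from them. No column names the direction, and a positive value was taken to mean more RNA with CORT. Unless it is called adjusted, a p threshold is one before adjustment. Each printed adjusted p is that of limma-voom, except for differences between responses, where it was computed here from the moderated errors. The residual degrees of freedom were 22 in the vHPC and 24 in the dHPC, and 32 libraries in 8 groups leave 24. In genes of at least 5 log2 CPM the unmoderated standard error of WT males in the vHPC was a median of 1.09 times that of WT females (5th to 95th percentile, 1.08 to 1.11), against 1.00 for hMet males and 1.00 for hMet females. With equal weights, 4 libraries against 3 give a ratio of 1.08. A library left out would account for 1 of the 2 missing degrees of freedom. How many libraries entered the comparison, and which, is not known from the table. Of 5 measured genes that mark sex, with log2 fold changes from -0.23 to 0.36, only the Y-linked Ddx3y was at p under 0.05. It was lower by 0.23 ± 0.08 on the log2 scale (adjusted p = 0.479) at a mean of -0.28 log2 CPM. That mean takes in the vHPC libraries of females, so it is not the level in males. A fold change between groups of males cannot check the sex of a library. One text in the labels speaks of 3 replicates and the series design of 2 weeks of treatment.

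CORT was followed by few changes past the adjusted threshold in WT males. At an unadjusted p under 0.05 and FC over 1.3, which defines differentially expressed genes (DEGs) here, 568 genes were called (2.69% of the genes tested), 221 higher with CORT (1.05%) and 347 lower (1.65%). At an adjusted p under 0.05, 2 genes rose and none fell (0.00948% of the genes tested), and 7 genes had an adjusted p under 0.1. Without a fold filter, p was under 0.05 in 724 higher (3.43%) and 803 lower genes (3.81%). The median log2 fold change over all genes was -0.01. Of the 568 DEGs, 382 (67.3%) averaged under 1 log2 CPM, against 32.7% of all genes. The 186 others were 60 higher and 126 lower, and 8 of them differed by over 1 on the log2 scale. In genes of at least 1 log2 CPM, the median half-width of the 95% interval was 0.16 on the log2 scale.

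**Figure D1:**
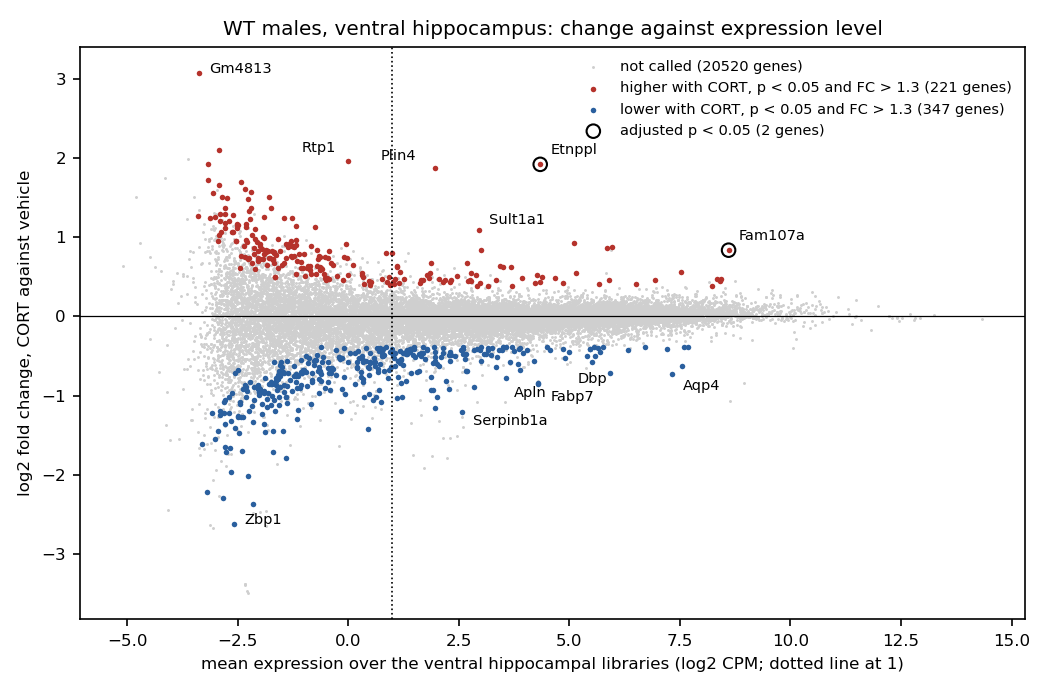
The log2 fold change of CORT against vehicle (vertical axis) is plotted against the mean expression in log2 CPM (horizontal axis, dotted line at 1) for the 21088 genes, with 221 DEGs higher in red and 347 lower in blue. The 2 circled genes, Etnppl and Fam107a, passed an adjusted p under 0.05, and most of the DEGs of widest change lie left of the dotted line.

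The genes that rose were Etnppl and Fam107a. Etnppl (ENSMUSG00000019232, GRCm38 chr3:130617448-130637521, plus strand, protein-coding) encodes ethanolamine-phosphate phospho-lyase, an enzyme of phospholipid breakdown made mainly by astrocytes in brain. It averaged 4.34 log2 CPM and rose 3.79-fold, 1.92 ± 0.25 on the log2 scale (95% interval 1.40 to 2.45, adjusted p = 0.00198 by limma-voom with Benjamini-Hochberg). Fam107a (ENSMUSG00000021750, chr14:8296274-8318023, minus strand, protein-coding), an actin-associated protein induced by stress and glucocorticoids, averaged 8.60 log2 CPM and rose 1.79-fold. Its log2 fold change was 0.84 ± 0.14 (0.55 to 1.13, adjusted p = 0.0358 by the same method). Both are in the list of glucocorticoid targets and in that of astrocyte markers.

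The RefSeq promoters (GRCm38.p6, 250 bases before to 50 after a start site) of 4 glucocorticoid targets are shown because they differ in how they match the receptor's consensus palindrome, of which 12 letters are defined. The sequences run 5′ to 3′ on the gene's strand. Capitals mark 15 bases centred on its inner part, ACANNNTGT, where a promoter has it.
Fam107a, chr14:8309730-8310029, minus strand: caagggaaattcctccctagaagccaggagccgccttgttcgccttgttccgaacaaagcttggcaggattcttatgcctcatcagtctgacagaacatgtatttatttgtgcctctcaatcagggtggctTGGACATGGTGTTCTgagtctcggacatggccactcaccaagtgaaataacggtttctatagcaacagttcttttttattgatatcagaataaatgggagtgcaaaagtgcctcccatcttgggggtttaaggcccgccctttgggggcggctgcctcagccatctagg
Mt1, chr8:94178839-94179138, plus strand: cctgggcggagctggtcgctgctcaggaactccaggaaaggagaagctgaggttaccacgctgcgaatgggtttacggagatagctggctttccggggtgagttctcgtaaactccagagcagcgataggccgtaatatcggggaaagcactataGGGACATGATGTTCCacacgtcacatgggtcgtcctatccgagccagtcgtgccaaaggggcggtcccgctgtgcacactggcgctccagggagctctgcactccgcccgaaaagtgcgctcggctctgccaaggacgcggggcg
Sgk1, chr10:21993640-21993939, plus strand: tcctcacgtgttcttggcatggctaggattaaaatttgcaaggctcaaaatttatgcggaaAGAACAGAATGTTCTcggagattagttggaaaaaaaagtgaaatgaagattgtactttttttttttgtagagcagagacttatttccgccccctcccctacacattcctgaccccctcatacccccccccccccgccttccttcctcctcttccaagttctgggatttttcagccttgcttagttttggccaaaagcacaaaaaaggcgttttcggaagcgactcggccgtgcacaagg
Etnppl, chr3:130617198-130617497, plus strand: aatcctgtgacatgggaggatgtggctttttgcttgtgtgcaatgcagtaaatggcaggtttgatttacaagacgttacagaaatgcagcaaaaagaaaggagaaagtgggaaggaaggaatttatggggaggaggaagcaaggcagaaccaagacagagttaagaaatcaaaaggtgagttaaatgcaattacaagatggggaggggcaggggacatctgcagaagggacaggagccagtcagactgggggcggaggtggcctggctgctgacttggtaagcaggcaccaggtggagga
Fam107a, shown with 1 of its 3 windows, had the inner part 116 bases before the start site, and 10 of the 12 letters matched. In Mt1 it began 92 bases before the start site with 9 of the 12 letters. Sgk1, shown with 1 of 6 windows, had all 12 letters 186 bases before the start site, yet its log2 fold change was 0.24 ± 0.19 (adjusted p = 0.814). Neither window of Etnppl had the inner part, although its fold change was the largest of the 4.

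Over all genes with a promoter in the RefSeq table (13516 of 21067 symbols, matched by symbol), 5.67% had ACANNNTGT on either strand in at least 1 window and 1 gene had the full palindrome. The share was 7.56% in the DEGs higher with CORT (9 of 119) and 7.48% in those lower (16 of 214). Among the glucocorticoid targets it was 6 of 25 (24.0%). The E-box CACGTG, bound by clock proteins, was in 8.40% of DEGs higher, 8.88% of DEGs lower and 10.8% of all. TTATGNAA, the D-box that Dbp binds, was in 3.36%, 4.67% and 2.74%, respectively, and TGACGTCA, the cyclic AMP response element, in 0.840%, 1.87% and 3.15%. TGCACNC, a core of the metal response element, was in 17.6%, 14.0% and 15.7%. These are descriptions of 300-base windows, and nothing was tested on them.

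Glucocorticoid targets were higher more often than lower. Of 31 measured members, 12 were higher at p under 0.05 and none lower, against the 3.43% and 3.81% of all genes given above, and the median log2 fold change was 0.19. The list was drawn up with earlier results of these data known, so its count is not independent evidence of its direction. Plin4, which coats lipid droplets, was 3.67-fold higher (1.88 ± 0.44 on the log2 scale, adjusted p = 0.215). Sult1a1, a sulfotransferase of phenols, was 2.13-fold higher (1.09 ± 0.23, adjusted p = 0.126). Apart from Etnppl, these 2 genes had the widest fold changes of the list. Cyp4f15, a fatty acid hydroxylase, was 1.54-fold higher (0.62 ± 0.14, adjusted p = 0.215). The metal-binding metallothionein Mt1 was 1.38-fold higher (0.47 ± 0.10, adjusted p = 0.126), and Fkbp5 was 1.37-fold higher (0.46 ± 0.13, adjusted p = 0.38). Gpd1, glycerol-3-phosphate dehydrogenase, Arrdc2, an arrestin-domain protein, Wipf3, an actin regulator, Gjb6, the astrocytic connexin 30, and Glul, glutamine synthetase, made up the 12, with log2 fold changes from 0.16 for Glul to 0.47 for Wipf3.

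Several of the most used markers of receptor activity did not pass p under 0.05. Tsc22d3, encoding GILZ, was at 0.03 ± 0.18 on the log2 scale (95% interval -0.34 to 0.39). Per1, a clock gene with a receptor element, was at -0.06 ± 0.08 and Zbtb16 at 0.15 ± 0.13. For Tsc22d3 and Zbtb16 the intervals still include a 1.3-fold rise. The targets that were higher thus did not include every gene for which such a response is known.

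**Figure D2:**
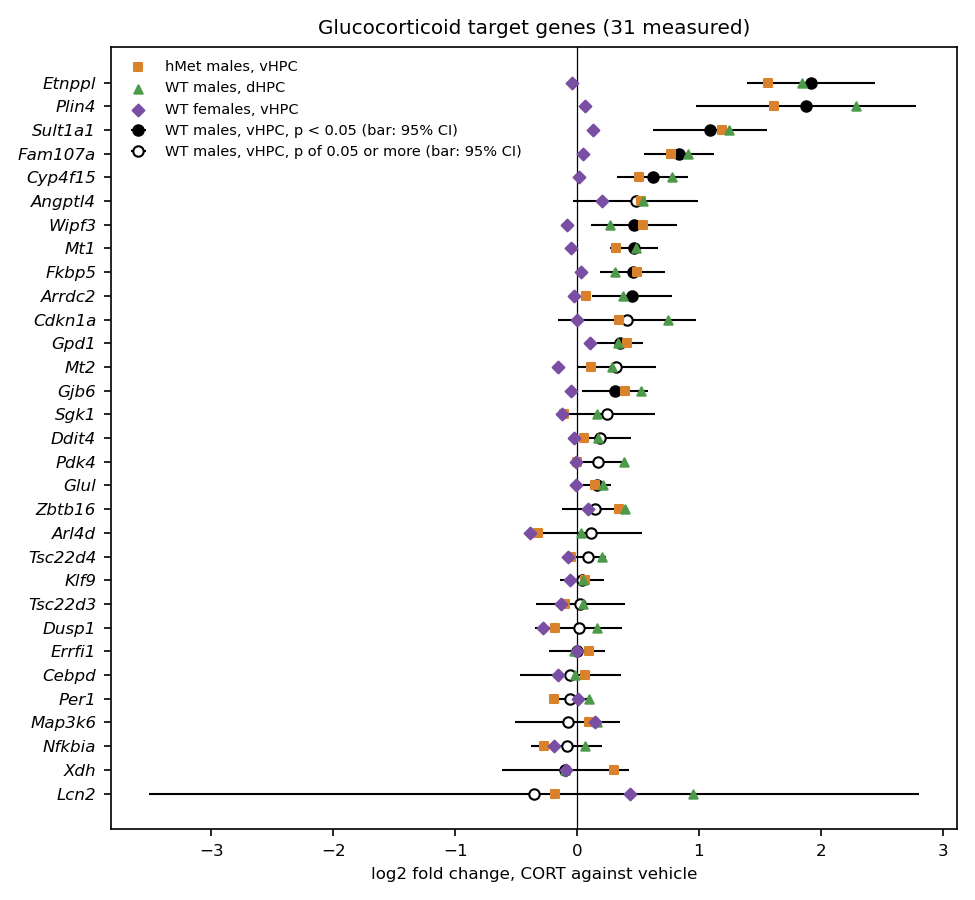
The log2 fold change of CORT against vehicle (horizontal axis) is plotted for the 31 glucocorticoid targets measured, with black circles and 95% intervals for WT males in the vHPC, filled where p was under 0.05, and with orange squares for hMet males in the vHPC, green triangles for WT males in the dHPC and purple diamonds for WT females in the vHPC. The filled circles, 12 of 31, all lie right of 0, and the purple diamonds lie near 0 for Etnppl (-0.04), Fam107a (0.05) and Plin4 (0.07).

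Among corticosteroid receptors, chaperones and steroid-converting enzymes, 1 of 19 members was higher (Fkbp5) and 2 were lower at p under 0.05. The shares over all genes were 3.43% higher and 3.81% lower. Of the 19 members 12 were above 0, with a median of 0.05 on the log2 scale. Hsd11b1, which regenerates active CORT from its inert 11-keto form, was 1.29-fold lower (-0.36 ± 0.13, adjusted p = 0.499). Nr3c1, the glucocorticoid receptor itself, was 1.19-fold lower (-0.25 ± 0.10, 95% interval -0.45 to -0.05, adjusted p = 0.597). Nr3c2, the mineralocorticoid receptor, was at -0.11 ± 0.15 (adjusted p = 0.902), and Crhr1, the receptor of corticotropin-releasing hormone, at -0.12 ± 0.15 (adjusted p = 0.891). The values for the receptors were small, and no member but Fkbp5 passed FC over 1.3.

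Clock genes were lower where they passed p under 0.05, 3 of 24 members, with none higher. Dbp, a transcription factor that carries the output of the clock, was 1.44-fold lower (-0.53 ± 0.13, adjusted p = 0.215). Nr1d2, the nuclear receptor REV-ERB beta, was at -0.19 ± 0.06 (adjusted p = 0.48) and Csnk1e, a kinase of the PER proteins, at -0.12 ± 0.06 (adjusted p = 0.684). Only Dbp passed FC over 1.3. The list's median was -0.05 on the log2 scale, with 18 of 24 members below 0. Over all genes, 10007 of 21088 were above 0 and 3.81% were lower at p under 0.05.

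Few activity-induced genes passed p under 0.05. Ier2 was the only one of 24 immediate early genes at p under 0.05 (0.27 ± 0.13, adjusted p = 0.682), against 3.43% of all genes higher. In the list 20 members were above 0, with a median of 0.12 on the log2 scale, against 10007 of all 21088 genes above 0. Fos was at 0.05 ± 0.67, an interval of -1.33 to 1.43 that leaves wide changes in either direction. Bdnf was at 0.07 ± 0.13 (adjusted p = 0.936, interval -0.20 to 0.33). Within the list of neurotrophins and their receptors, Vgf, a secreted neuropeptide precursor, was higher (0.20 ± 0.06, adjusted p = 0.409), as was Ntrk3, the receptor of neurotrophin-3 (0.25 ± 0.11, adjusted p = 0.647). Pcsk1, a prohormone convertase, was lower (-0.26 ± 0.10, adjusted p = 0.568). Among stress neuropeptides Cck was lower (-0.18 ± 0.07, adjusted p = 0.619) and Avp was higher (1.37 ± 0.63, adjusted p = 0.654), the latter at a mean of only -1.75 log2 CPM.

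Astrocyte genes went in both directions. Of 28 markers, 8 were higher and 3 lower at p under 0.05, against 3.43% and 3.81% of all genes. The list's median was -0.05 on the log2 scale. Prodh, proline dehydrogenase, was higher (0.44 ± 0.08, adjusted p = 0.071). Aldoc, the astrocytic aldolase, was 1.26-fold higher (0.33 ± 0.06, adjusted p = 0.071), and so did not reach FC over 1.3. Aldh1l1, a folate enzyme and a widely used astrocyte marker, was also higher (0.24 ± 0.07, adjusted p = 0.38). Against these, Aqp4, the water channel of astrocyte endfeet, was 1.65-fold lower (-0.72 ± 0.15, adjusted p = 0.126). Fabp7, a fatty acid binding protein of immature astrocytes and radial glia, was 1.81-fold lower (-0.86 ± 0.21, adjusted p = 0.31). Gfap was at -0.31 ± 0.25 (adjusted p = 0.819), so the astrocyte list did not go one way. Gstm1, a glutathione transferase outside the list, was 1.29-fold higher (0.37 ± 0.07, adjusted p = 0.071).

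Markers of microglia were lower or not past the threshold. All 24 measured members were below 0, 9 of them at p under 0.05, and the median was -0.28 on the log2 scale. Of all 21088 genes, 10007 were above 0 and 3.81% were lower at p under 0.05. Itgam, encoding CD11b, was 1.61-fold lower (-0.69 ± 0.22, adjusted p = 0.463). The purinergic receptors P2ry12 (-0.51 ± 0.19, adjusted p = 0.582) and P2ry13 (-0.44 ± 0.16, adjusted p = 0.542) were lower too, as were Gpr34 (-0.58 ± 0.18, adjusted p = 0.45) and Fcrls (-0.84 ± 0.31, adjusted p = 0.563). No microglial gene passed the adjusted threshold. In bulk tissue, fewer cells of a type and less RNA per cell cannot be told apart.

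Vessel genes were lower more often than higher. Of 30 endothelial and blood-brain barrier markers, 13 were lower and 2 higher at p under 0.05, with a median of -0.16 on the log2 scale. Over all genes, 3.81% were lower and 3.43% higher. Apln (ENSMUSG00000037010, chrX:48025146-48034853, minus strand), the ligand apelin made by sprouting endothelium, was 1.71-fold lower (-0.78 ± 0.14, 95% interval -1.07 to -0.49, adjusted p = 0.0524). Its receptor Aplnr was 2.51-fold lower (-1.33 ± 0.58, adjusted p = 0.643) at a mean of -2.16 log2 CPM. Itm2a (-0.57 ± 0.15, adjusted p = 0.318), an endothelial membrane protein, Sox17 (-0.51 ± 0.15, adjusted p = 0.409), an arterial transcription factor, and Tek (-0.36 ± 0.15, adjusted p = 0.624), the angiopoietin receptor, were lower as well. The 2 members higher were Mfsd2a, the lipid transporter that keeps the barrier tight (0.53 ± 0.13, adjusted p = 0.215), and Tfrc, the transferrin receptor (0.26 ± 0.09, adjusted p = 0.479). All 3 of 18 pericyte and smooth muscle markers at p under 0.05 were lower, namely Rgs5 (-0.25 ± 0.07), Notch3 (-0.39 ± 0.15) and Mcam (-0.39 ± 0.18). Of 25 genes of hypoxia and vascular growth, 4 were lower and 1 higher, the latter being Igf1r (0.19 ± 0.07, adjusted p = 0.624).

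Markers of oligodendrocyte precursors and of adult neurogenesis were lower at p under 0.05 in a larger share than the 3.81% of all genes, and mature oligodendrocyte markers in a share closer to it. Of 16 markers of oligodendrocyte precursors 4 were lower, among them Enpp6, a marker of newly forming oligodendrocytes (-0.89 ± 0.28, adjusted p = 0.442), C1ql1 (-0.35 ± 0.10, adjusted p = 0.409) and Gpr17 (-0.36 ± 0.14, adjusted p = 0.589). Tnr, a matrix glycoprotein of these cells and of perineuronal nets, was higher (0.23 ± 0.08, adjusted p = 0.541). Of 24 mature oligodendrocyte markers, 2 were lower, Car2, carbonic anhydrase II (-0.41 ± 0.10, adjusted p = 0.254), and Opalin (-0.60 ± 0.27, adjusted p = 0.651). Of 23 genes of adult neurogenesis and proliferation 4 were lower, Hopx (-0.35 ± 0.08, adjusted p = 0.215), Fabp7, Sox4 (-0.26 ± 0.10) and Nes (-0.42 ± 0.17), and none higher. All of the genes named here except Tnr were lower, and none passed the adjusted threshold.

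Neuronal lists held members higher and lower at p under 0.05, against 3.43% of all genes higher and 3.81% lower. Of 14 excitatory neuron markers 3 were higher, the neurofilaments Nefm (0.27 ± 0.07, adjusted p = 0.357) and Nefl (0.21 ± 0.08, adjusted p = 0.618) and the vesicle protein Syt1 (0.12 ± 0.06, adjusted p = 0.647). Of 28 interneuron and GABA genes 2 were higher, Gabbr2 (0.18 ± 0.07) and Calb1 (0.23 ± 0.10), and Cck was lower. Of 31 glutamate receptors and scaffolds 4 were higher, with Grin2a at 0.37 ± 0.15 (adjusted p = 0.629) and Shank2 at 0.12 ± 0.05 (adjusted p = 0.648), and 2 were lower, with Grm3 at -0.41 ± 0.12 (adjusted p = 0.435) and Grin2c at -0.32 ± 0.14 (adjusted p = 0.629). Calb1 alone of 28 subfield and ventral markers was at p under 0.05, and none of 13 serotonin receptor and transport genes was. Of 28 potassium channel and ion homeostasis genes, Car2 and Kcnk2, a leak channel (-0.30 ± 0.09, adjusted p = 0.409), were lower and none was higher.

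**Figure D3:**
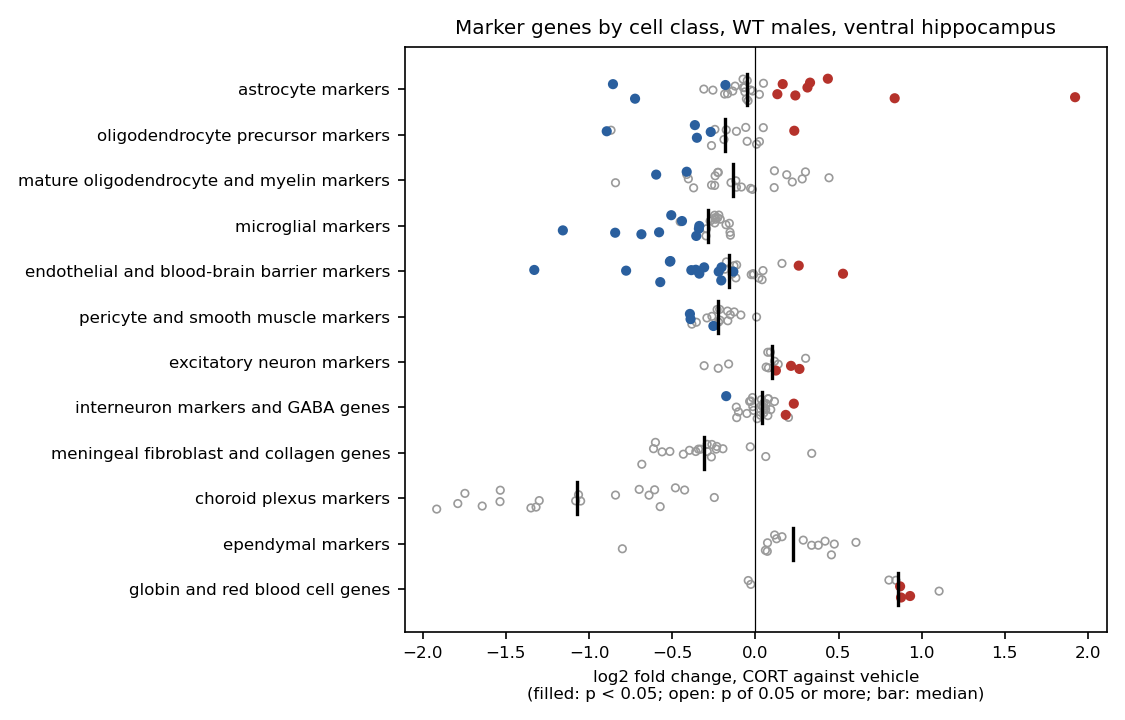
Each circle is a marker gene of the cell class on the vertical axis at its log2 fold change of CORT against vehicle (horizontal axis), filled red (higher) or blue (lower) where p was under 0.05 and open otherwise, with a bar at the median of the list. All 24 microglial markers lie left of 0, astrocyte markers spread from -0.86 to 1.92, and the choroid plexus markers lie far left with no member called.

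Markers of tissues that a dissection can carry along were measured beside these results. Of all 21088 genes, 10007 were above 0. All 20 choroid plexus markers were below 0, with a median of -1.07 on the log2 scale and none at p under 0.05. Ttr, transthyretin, was at -1.06 ± 2.30 and Enpp2 at -0.84 ± 1.14. Of 20 meningeal and collagen genes 18 were below 0 (median -0.31, none at p under 0.05), and of 14 ependymal markers 13 were above 0 (median 0.22, none at p under 0.05). None of 21 markers of thalamus, striatum and amygdala was at p under 0.05. Of 8 globin and red cell genes 3 were higher at p under 0.05 and 2 were below 0, against 3.43% of all genes higher. The list's median of 0.86 became 0.0083 as a mean weighted by the errors. Those at p under 0.05 were Hbb-bt, higher by 0.93 ± 0.42 (adjusted p = 0.65), Hba-a2 by 0.87 ± 0.41 (adjusted p = 0.678) and Hba-a1 by 0.88 ± 0.42 (adjusted p = 0.686). Hba-a1 and Hba-a2 are near-identical copies, so how reads were split between them is uncertain. The globins at p under 0.05 were all higher, and of 30 endothelial markers 13 were lower and 2 higher at p under 0.05. The part of blood, plexus or meninges in the other results was not tested.

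Genes of metabolism were higher in part. Of 37 genes of glucose and amino acid metabolism 11 were higher and 2 lower at p under 0.05, against 3.43% and 3.81% of all genes. Etnppl, Prodh, Aldoc and Glul were the leading members, and the median was 0.08 on the log2 scale. The same shares of all genes apply to the other lists of this paragraph. Of 13 iron genes, the ferroxidase Heph (0.46 ± 0.12, adjusted p = 0.323), Fth1, ferritin heavy chain (0.27 ± 0.08, adjusted p = 0.442), and Tfrc were higher and Steap3, a ferrireductase, was lower (-0.38 ± 0.17). Mt3, a brain metallothionein, was higher (0.24 ± 0.07, adjusted p = 0.357), 1 of 2 at p under 0.05 among 11 metallothionein and zinc genes, beside Mt1. Cholesterol genes counted 2 lower of 28, Sc5d (-0.10 ± 0.05) and Nsdhl (-0.13 ± 0.06), both within 1.3-fold. No subunit of oxidative phosphorylation (34 measured) and no gene of DNA methylation (22) was at p under 0.05. Of 20 heat shock genes Chordc1 was higher at p under 0.05 (0.16 ± 0.07), and 16 were above 0. Of 24 interferon genes Psmb8, an immunoproteasome subunit, was lower at p under 0.05 (-0.66 ± 0.28, adjusted p = 0.629). In that list 22 members were below 0 (median -0.39 on the log2 scale), and 9 averaged under 1 log2 CPM. Among 38 ribosomal protein genes Rpl7 (-0.11 ± 0.04) and Rpl22 (-0.13 ± 0.06) were lower at p under 0.05. There 37 were below 0, with a median of -0.06. Of all 21088 genes, 10007 were above 0.

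Some remodelers and histone methylation genes were higher by small amounts, and most members of either list did not pass p under 0.05. Over all genes, 3.43% were higher and 3.81% lower at p under 0.05. Of 34 remodelers 8 were higher and none lower at p under 0.05, led by Chd4 (0.19 ± 0.06, adjusted p = 0.44), Chd9 (0.22 ± 0.07, adjusted p = 0.442), Baz1b (0.14 ± 0.05, adjusted p = 0.543) and Chd2 (0.14 ± 0.06, adjusted p = 0.622). Of 44 histone methylation genes 6 were higher and none lower, among them the methyltransferases Kmt2d (0.34 ± 0.11, adjusted p = 0.479), Kmt2a (0.25 ± 0.10), Setd1b (0.19 ± 0.09) and Ezh1 (0.13 ± 0.06). None passed FC over 1.3. Of 29 histone acetylation genes only Hdac5, a deacetylase, was at p under 0.05 (-0.14 ± 0.07, adjusted p = 0.651). These genes are long: 6 of the 8 remodelers and 5 of the 6 methylation genes were in the longest quintile of expressed protein-coding genes by exon length, as were 19 of 33 remodelers (57.6%) and 21 of 42 methylation genes with a length, called or not. In that quintile 6.55% of genes were higher and 3.12% lower at p under 0.05 (median log2 fold change 0.02), against 3.20% and 3.87% in the shortest quintile (median -0.01). The part of gene length in these counts was not tested.

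**Figure D4:**
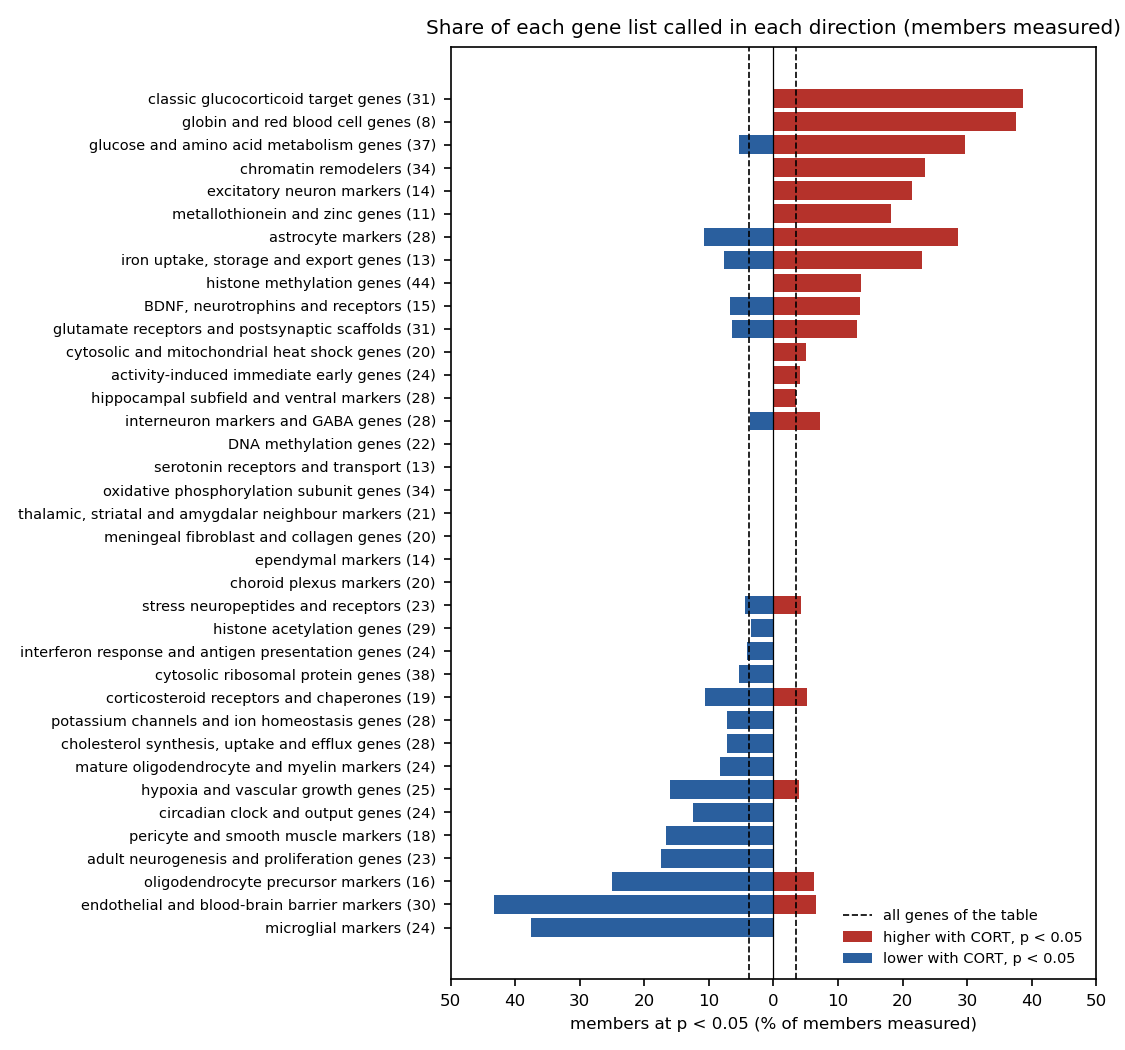
Bars give the share of the measured members of 37 gene lists (numbers in parentheses) at p under 0.05, higher with CORT to the right in red and lower to the left in blue, in percent. Dashed lines mark the shares over all genes, 3.43% higher and 3.81% lower. Glucocorticoid targets pass on the right and microglial and endothelial markers on the left, as do other lists. Among these are globin (3 of 8) and metabolism genes (11 of 37) on the right and oligodendrocyte precursor markers (4 of 16) on the left. In a short list a single member can pass the line.

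Other leading genes of the comparison lay outside the lists. Of those higher, Spink8, a protease inhibitor expressed in pyramidal cells of CA1, was at 0.62 ± 0.13 (adjusted p = 0.163). Pnpla7, a lysophospholipase (0.42 ± 0.09, adjusted p = 0.215), and Cyp2j9, an arachidonate epoxygenase (0.43 ± 0.10, adjusted p = 0.215), act on lipids, and Slc25a34 is a mitochondrial carrier (0.67 ± 0.16, adjusted p = 0.215). Crybb1, a crystallin also made by immature microglia (0.64 ± 0.15, adjusted p = 0.215), Icosl, a costimulatory ligand (0.49 ± 0.12, adjusted p = 0.294), and Kirrel2, an adhesion molecule (0.52 ± 0.13, adjusted p = 0.31), followed. Icosl and Kirrel2 were the weakest of the 15 by p. Of those lower, Enpep, the aminopeptidase that cleaves angiotensin II, was at -0.52 ± 0.12 (adjusted p = 0.215), Tst, thiosulfate sulfurtransferase, at -0.56 ± 0.13 (adjusted p = 0.215), and Rlbp1, a retinaldehyde binding protein of glia, at -0.46 ± 0.12 (adjusted p = 0.31). Epb41l2 (-0.43 ± 0.11), a membrane skeleton protein, St3gal6 (-0.42 ± 0.11), a sialyltransferase, and Ptn (-0.63 ± 0.16), the growth factor pleiotrophin, were lower as well. Ednrb, the endothelin B receptor of astrocytes and endothelium, was at -0.71 ± 0.18 (adjusted p = 0.318), Art3, an ADP-ribosyltransferase-like protein, at -0.77 ± 0.20 (adjusted p = 0.323), and Serpinb1a, a protease inhibitor, at -1.21 ± 0.32 (adjusted p = 0.329). Serpinb1a had the widest fold change of these, 2.31-fold lower.

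The 3 DEGs of widest fold change in each direction all averaged under 1 log2 CPM. Rtp1, a chaperone of odorant receptors, was 3.91-fold higher (1.97 ± 0.39, adjusted p = 0.0992 by limma-voom) at -0.01 log2 CPM. Gm4813 (3.08 ± 0.75) and B430306N03Rik (2.11 ± 0.74) averaged -3.38 and -2.93 log2 CPM. Zbp1, a nucleic acid sensor, was 6.15-fold lower (-2.62 ± 1.05) at -2.58 log2 CPM, and Ccl21a, a chemokine, was listed under 2 identifiers at -2.37 ± 0.79 and -2.29 ± 0.70. The Ccl21 genes are near-identical copies, which makes the 2 values uncertain and not independent of each other.

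The same genes were then read in 3 other comparisons, which share no library with that of WT males in the vHPC. Among the 60 DEGs higher and 126 lower that averaged at least 1 log2 CPM, hMet males in the vHPC had the same sign in 54 and 123, and the same sign at p under 0.05 in 38 (63.3%) and 88 (69.8%). Over all 14197 genes at that level the counts were 9966 (70.2%) and 2833. In the dHPC of WT males, which may come from the same animals, 55 and 113 had the same sign and 29 (48.3%) and 36 (28.6%) also p under 0.05, against 62.4% and 3.58% of all genes. In WT females 35 and 88 had the same sign, and 2 (3.33%) and 4 (3.17%) also p under 0.05, against 57.5% and 1.75% of all. The DEGs higher had a median log2 fold change of 0.47 in WT males in the vHPC, 0.42 in hMet males, 0.42 in the dHPC and 0.02 in WT females. Those lower were at a median of -0.48, -0.45, -0.28 and -0.06, respectively. These DEGs were picked by their p and fold change in WT males in the vHPC. Their 2 medians in WT males in the vHPC are widened by that choice and are not comparable in size with the others. DEGs shared in the same direction numbered 100 with hMet males (53.8% of the 186 and 22.9% of 436). With the dHPC they numbered 53 (28.5% of the 186 and 29.3% of 181), and with WT females 3 (1.61% of the 186 and 15% of 20). Of the 14197 genes at that level in the vHPC, 436 were DEGs in hMet males and 20 in WT females. The number shared depends on how many genes each comparison called, so the 3 numbers are not comparable.

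**Figure D5:**
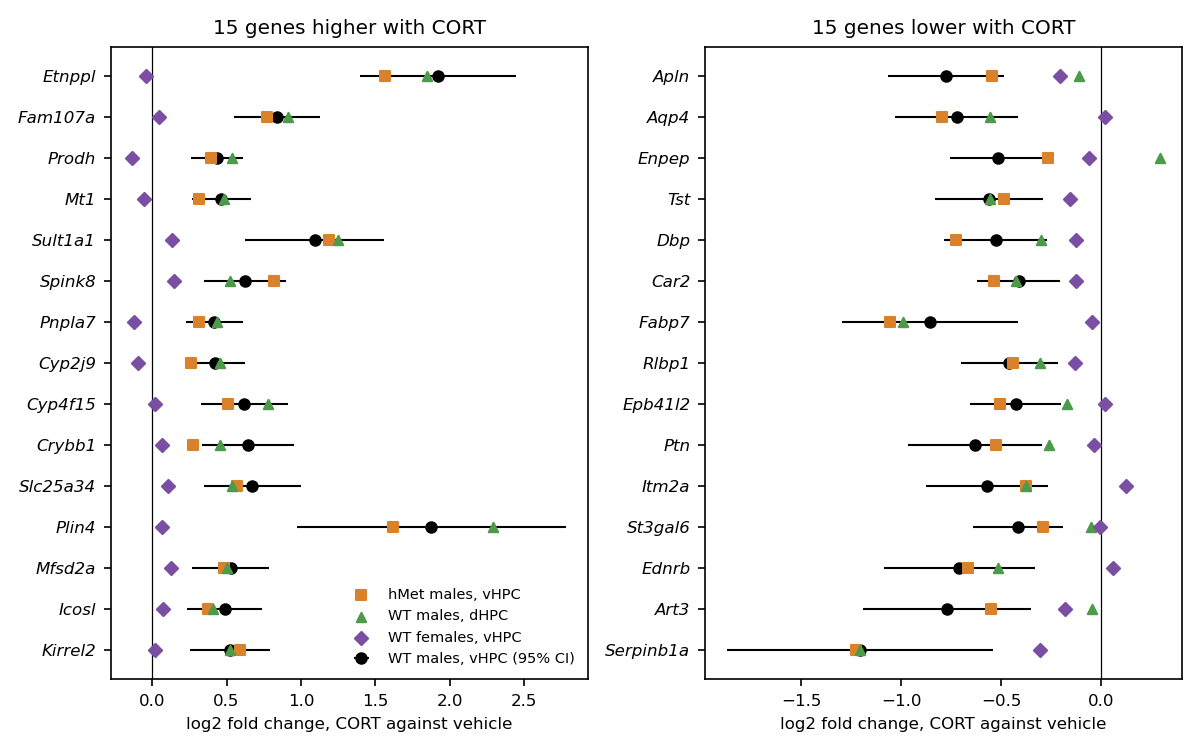
The 15 genes of smallest p higher with CORT (left) and the 15 lower (right), among DEGs of at least 1 log2 CPM, are plotted at their log2 fold change (horizontal axis), with black circles and 95% intervals for WT males in the vHPC, orange squares for hMet males, green triangles for the dHPC of WT males and purple diamonds for WT females. Etnppl was at 1.92, 1.57, 1.85 and -0.04, in that order, and Apln at -0.78, -0.55, -0.11 and -0.21.

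The lists were set side by side in the same way, with no test of a difference between lists. Over all genes, 3.43% were higher and 3.81% lower at p under 0.05 in WT males in the vHPC, 9.33% and 8.98% in hMet males, 2.01% and 2.54% in the dHPC, and 1.52% and 1.66% in WT females. Microglial markers lower at p under 0.05 numbered 9 of 24 in WT males in the vHPC, 23 in hMet males, 18 in the dHPC and 0 in WT females, with medians of -0.28, -0.54, -0.33 and -0.02 on the log2 scale. Endothelial markers lower numbered 13 of 30 in WT males in the vHPC, 7 in hMet males, 2 in the dHPC and 0 in WT females. Among glucocorticoid targets 12, 13, 14 and 0 were higher in the same order. Astrocyte markers were 8 higher and 3 lower in WT males in the vHPC, 7 and 10 in hMet males, 8 and 5 in the dHPC and 0 and 0 in WT females. The medians of the choroid plexus list were below 0 in all 4, at -1.07, -0.48, -0.52 and -0.65, with no member at p under 0.05. Differences in these counts were not tested.

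No gene differed between WT males and any of the 3 at an adjusted p under 0.05 (0% of 21088 genes against hMet males, 0% of 21088 against WT females and 0% of 18257 against the dHPC, by the difference of log2 fold changes with Benjamini-Hochberg). At an unadjusted p under 0.05 the counts were 692 (3.28%), 913 (4.33%) and 299 (1.64%). Among genes of at least 1 log2 CPM, gene models left out, the smallest p against WT females belonged to Etnppl, with a difference of 1.96 ± 0.36 on the log2 scale (adjusted p = 0.336). Prodh (0.57 ± 0.11, adjusted p = 0.357), Gstm1 (0.41 ± 0.09, adjusted p = 0.987), Pnpla7 (0.54 ± 0.13) and Fam107a (0.79 ± 0.19, adjusted p = 0.987) followed. That the response of WT females was near 0 for these genes is a description, since the difference itself did not pass.

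By the same rule, the smallest p against hMet males belonged to Cep164, a centriole protein (0.17 in WT and -0.18 in hMet males), Rpa2, a single-strand DNA binding protein (0.15 and -0.24), Zfp408 (-0.18 and 0.05), Stard4, a sterol carrier (-0.07 and 0.26), and Nsdhl, of sterol synthesis (-0.13 and 0.14). Bdnf, the gene that carries the variant, was at 0.07 in WT and 0.45 in hMet males, a difference of -0.38. All adjusted p of these differences were at least 0.9997. Against the dHPC, Apln (-0.78 in the vHPC and -0.11 in the dHPC), Enpep (-0.52 and 0.29), Hnrnpab (0.09 and -0.19), Eno1b (0.09 and -0.18) and Mapk12 (-0.45 and 0.27) led, again with none past the adjusted threshold.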

How the data were processed

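RNA of the vHPC of WT males given CORT or vehicle was sequenced by the authors, single-end, aligned to GRCm38 (mm10) with STAR, counted with featureCounts and fitted with limma-voom. Versions are not given in the sources used here. The deposited mean expression, fold change and unmoderated standard error are log2 values by the authors. The authors' moderated t from limma, a score, and the p-value, unadjusted and adjusted over 21088 genes by Benjamini-Hochberg, are as deposited. Degrees of freedom, another unit, are as deposited by the authors. Lists of DEGs beside the tables were not used. The tables give no depth per library, and the labels give about 35000000 to 40000000 reads for each.

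The p and adjusted p were recomputed from t and the total degrees of freedom. Moderated standard errors, 95% intervals, differences of responses (root of the summed squared moderated errors, smaller total degrees of freedom, Benjamini-Hochberg over all shared genes) and list counts were computed with Python 3.11.15, numpy 2.4.6, pandas 2.3.3 and scipy 1.17.1, figures with matplotlib 3.10.9. A difference treats comparisons as independent that share an estimate of spread. The calls and differences were tested on simulated data. Of 21088 identifiers 21064 (99.9%) were in the GENCODE vM21 annotation of GRCm38, which gave coordinates. Where a symbol had several identifiers, the list used that of highest mean.

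Named genes were the 15 of smallest p in each direction (p under 0.05, FC over 1.3, at least 1 log2 CPM, 10 gene models of these DEGs left out), up to 4 members at p under 0.05 of each list and all such members of the receptor, target and clock lists, 6 genes the paper names, the 5 genes of smallest p in each difference (at least 1 log2 CPM, gene models left out) and the 3 DEGs of widest fold in each direction; a few further list members were named after their values were seen. Members and lists were chosen with earlier results of these data known. The libraries are described as biological replicates, each a pool of animals. With 22 residual degrees of freedom, the error behind each p drew on the other vHPC groups too and was moderated across genes. The spread between the pools of WT males alone is not known. Alternatives were other thresholds, filters, errors and adjustments.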

Additional observations from a re-analysis of the deposited data

How the results depend on the processing

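The count of 568 DEGs became 184 at p under 0.01, 1527 with no fold filter, 355 at FC over 1.5, 186 over genes of at least 1 log2 CPM and 355 without gene models. It was 542 with unmoderated errors and 456 when tested against 1.1-fold. The share of DEGs that were higher was 38.9%, 32.3% over genes of at least 1 log2 CPM and 47.4% with no fold filter. The 2 genes at an adjusted p under 0.05 became 6 when adjusted over genes of at least 1 log2 CPM (Aldoc, Apln, Gstm1 and Prodh added), 3 without gene models (Apln added), and 1, Etnppl, with unmoderated errors or with Benjamini-Yekutieli. Differences of responses stayed at 0 genes under a filter on mean expression and under unmoderated errors; at an unadjusted p under 0.05 they numbered 692 against hMet males, 913 against WT females and 299 against the dHPC. Of the list medians, 4 of 38 had another sign as a weighted mean, among them astrocyte markers (0.02, median -0.05), iron genes (0.02, median -0.04) and metallothionein genes (0.06, median -0.01).

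No paired analysis was possible because the deposited tables hold no values per library, and for the same reason no replicate was left out.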

Other observations

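The guanylate-binding proteins, interferon-induced GTPases of innate defence, were picked out after their values had been seen. All 10 Gbp genes measured in WT males of the vHPC were below 0 on the log2 scale, 4 of them lower at p under 0.05 and none higher. Over all genes, 10007 of 21088 were above 0 and 3.81% were lower at p under 0.05. Gbp3 was 2.03-fold lower (-1.02 ± 0.34, adjusted p = 0.48) and Gbp4 2.04-fold lower (-1.03 ± 0.44, adjusted p = 0.629). Gbp5 was at -0.70 ± 0.25 and Gbp7 at -0.44 ± 0.19. These genes lie on chromosomes 3 and 5 among close copies, so reads may have been split between them. Gbp3 was at -0.71 in hMet males, -0.52 in the dHPC of WT males and 0.03 in WT females. None passed the adjusted threshold, and the smallest adjusted p among the 10, from limma-voom with Benjamini-Hochberg, was 0.48.

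Protein-coding genes made up 63.2% of the 568 DEGs and 74.5% of the table. Of the DEGs 53 were lincRNAs, 53 antisense genes, whose reads cannot be told from those of their partners unless strand was used in the counting, and 27 processed pseudogenes, whose reads can stem from their parent genes.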
